A study of Arabidopsis thaliana with 6 samples.

Results

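The genes described here act on broken or recombining DNA. They are 7 of the 13350 Arabidopsis genes that the array annotation used here names alone on at least 1 probe set, and were picked by name from the recombination and end joining machinery, at a time when earlier results of these data were known. RECQ4A, TOP3A, FANCM and AT1G79950 (RTEL1) are anti-recombination factors, RAD51B is a recombination factor, and ATLIG4 and AT4G32700 (TEB) are end joining factors. AT4G32700 has 2 probe sets and each of the others has 1, so 8 of 22746 probe sets are concerned. A probe set is a group of short oligonucleotides that together measure 1 transcript. The RNA came from whole Arabidopsis seedlings of the Col-0 ecotype at 10 days of age, either wild type (WT) or transgenic for human p53 under the constitutive cauliflower mosaic virus 35S promoter (35S:P53, called p53 below), and was measured on the Affymetrix ATH1 array. Each genotype has 3 arrays, which per the labels derive from independent biological experiments. The sources used here do not say from which transgenic line or lines the seedlings came, and the presence of the transgene could not be checked, since no probe set is named for it.

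Homologous recombination repairs a DNA break by copying a matching sequence, and RAD51B is one of the accessory factors of this repair. Helicases of the RECQ4A, FANCM and RTEL1 kind unwind recombination intermediates, and TOP3A, a topoisomerase, works with RECQ4A to take joined molecules apart without a crossover. End joining seals the break without a long template. ATLIG4 is the ligase of the classical route, and TEB, the plant counterpart of DNA polymerase theta, serves an alternative route that uses short matches. In plants these helicases are known as brakes on recombination in somatic cells, in meiosis or in both, and somatic recombination is the process that the study measured in p53-transgenic plants.

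The deposited values are logs, taken here as log2, and each probe set was centred on its own median across the 6 arrays. Such values hold contrasts between arrays but not the amount of a transcript, so the genes cannot be ranked by abundance. The annotation used here names none of the 17 listed leaf, root, dividing cell and seed markers alone on a probe set. The tissue was therefore not checked with them. As the middle values of a probe set lie symmetrically about 0, a gap between the genotypes is read from the arrays nearest to 0. The medians of the arrays lay between -0.02 and 0.01. The quality summary of the study marks all 6 arrays as outside bounds in its threshold test. p53 replicates 2 and 3 stood apart from each other, with a correlation of 0.27 across probe sets, whereas p53 replicate 1 correlated with them at 0.61 and 0.70 and the WT arrays with each other at 0.60 to 0.73. Where 1 array decided the value of a gene described below, the value without it is given too. The tissue was taken whole, so fewer cells of a type and less RNA per cell cannot be told apart.

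None of the 8 probe sets differed between p53 and WT seedlings at an adjusted p under 0.05. The test was limma, a linear model in which the variance of a probe set is moderated by that of the others, adjusted by Benjamini-Hochberg. Of the 22746 probe sets adjusted over, 15.4% passed (6.55% higher and 8.84% lower in p53). At an unadjusted p under 0.05 the count was 3 of 8 probe sets, RECQ4A, AT1G79950 and 1 of the probe sets of AT4G32700, where 29.2% of all probe sets did so. With the replicate number as a block it was 2 of 8, without RECQ4A. The arrays of the genotypes did not overlap for 4 of 8, where the share over all probe sets was 34.3%. The log2 differences (p53 minus WT) ran from -0.32 to 0.31, so no member changed by as much as 1.5-fold in its estimate, a size that 13.6% of all probe sets exceeded. The study uses as thresholds a t test p under 0.05, with no adjustment stated, and a fold change over 2. With the unadjusted limma p in place of the t test, 0 of 8 met them, where 5.88% of all probe sets did. For 6 of 8 the whole 95% confidence interval lay within 1.5-fold either way (66% of all probe sets), or for 7 of 8 with the block, and for all 8 it lay within 2-fold (86.2% of all probe sets).

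**Figure D1:**
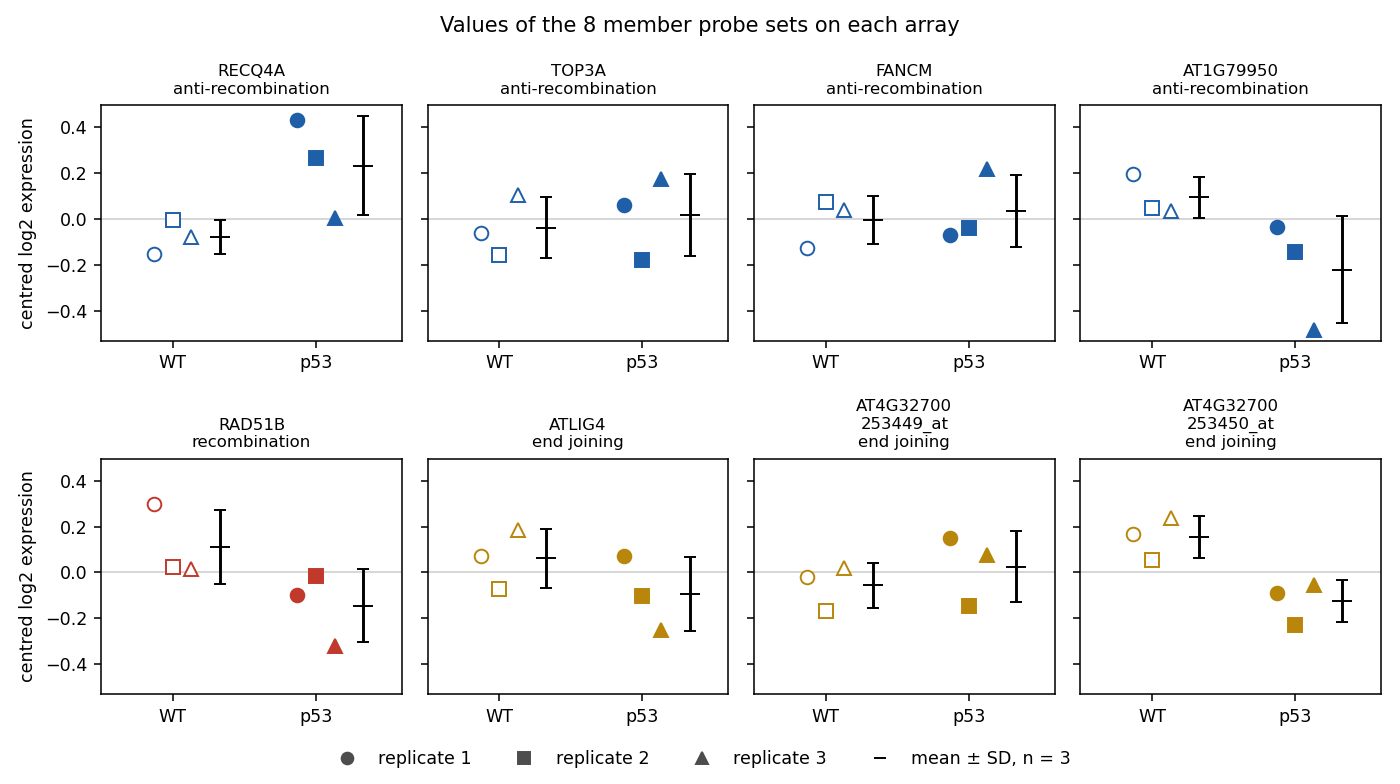
Centred log2 expression of the 8 probe sets on each array (open symbols WT, filled symbols p53, 1 symbol shape per replicate number), with the mean ± SD of 3 arrays beside them. The genotypes do not overlap for RECQ4A, AT1G79950, RAD51B and probe set 253450_at of AT4G32700, and for RECQ4A the gap is 0.0054.

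Among the anti-recombination factors, the values of RECQ4A and AT1G79950 leaned in opposite directions and those of TOP3A and FANCM lay near 0. RECQ4A (AT1G10930, probe set 260463_at) encodes a RecQ helicase, the plant relative of the human BLM helicase. Its values were -0.15, -0.0027 and -0.08 in WT replicates 1 to 3 and 0.43, 0.26 and 0.0027 in p53 replicates 1 to 3. All p53 arrays lay above all WT arrays, but p53 replicate 3 cleared WT replicate 2 by only 0.0054, and the p53 arrays spread more widely (SD 0.22, against 0.07 in WT, n = 3 each). The log2 difference was 0.31 (standard error 0.12, 95% confidence interval 0.02 to 0.60), a fold change of 1.24, with an adjusted p of 0.151. The upper end of the interval, 1.52-fold, is just past 1.5-fold. RECQ4A was the member whose call turned on 1 array. Without p53 replicate 3 its log2 difference was 0.42 (adjusted p = 0.0314). With p53 replicate 1 alone against WT it was 0.51, a value that holds no spread of p53 arrays. Without p53 replicate 1 it fell to 0.21 (adjusted p = 0.384).

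AT1G79950 (probe set 262066_at) encodes a helicase of the RTEL1 type, known for dismantling displacement loops and for protecting telomeres. Its values were 0.20, 0.05 and 0.04 in WT replicates 1 to 3 and -0.04, -0.14 and -0.48 in p53 replicates 1 to 3. Every p53 array lay below the lowest WT array, and p53 replicate 3 was the lowest of all. The log2 difference was -0.32 (standard error 0.13, 95% confidence interval -0.63 to -0.0036), a fold change of 0.804, with an adjusted p of 0.167. The lower end of the interval, 0.647 of the WT level, is past 1.5-fold, while with the replicate number as a block the interval of -0.58 to -0.05 lay within it. Without p53 replicate 3 the log2 difference was -0.18 (adjusted p = 0.254), over 1.5 times smaller, and in none of the alternatives tried did the gene pass.

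TOP3A and FANCM showed no separation of the genotypes. TOP3A (AT5G63920, probe set 247301_at) had values of -0.06, -0.16 and 0.10 in WT and of 0.06, -0.18 and 0.17 in p53 replicates 1 to 3. In both genotypes replicate 2 was the lowest array and replicate 3 the highest. Its log2 difference was 0.06 (95% confidence interval -0.23 to 0.35, adjusted p = 0.828). FANCM (AT1G35530, probe set 262036_at), the helicase named for Fanconi anemia complementation group M, had values of -0.12, 0.07 and 0.04 in WT and of -0.07, -0.04 and 0.22 in p53 replicates 1 to 3. The highest array was p53 replicate 3 and the lowest WT replicate 1, and the rest of the arrays were mixed. Its log2 difference was 0.04 (95% confidence interval -0.22 to 0.30, adjusted p = 0.867). The intervals leave room for a rise of 1.27-fold for TOP3A and 1.23-fold for FANCM, and for a fall to 0.85 and 0.857 of WT. The sign of each value changed when certain single arrays were left out.

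Apart from these, the recombination and end joining factors had 3 of 4 values below 0, where 11925 of all 22746 probe sets did so. RAD51B (AT2G28560, probe set 264077_at) had values of 0.30, 0.02 and 0.01 in WT and of -0.10, -0.01 and -0.32 in p53 replicates 1 to 3. The genotypes did not overlap, but the gap between them was 0.03, and WT replicate 1 and p53 replicate 3 held the extremes. The log2 difference was -0.26 (standard error 0.12, 95% confidence interval -0.55 to 0.04), a fold change of 0.837, with an adjusted p of 0.227. Without WT replicate 1 it was -0.16 and without p53 replicate 3 it was -0.17, and RAD51B passed under none of the alternatives tried. An interval whose lower end is 0.684 of WT and whose upper end is 1.02-fold leaves both a moderate fall and no change possible.

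ATLIG4 (AT5G57160, probe set 247939_at) encodes DNA ligase IV. Its values were 0.07, -0.07 and 0.19 in WT and 0.07, -0.10 and -0.25 in p53 replicates 1 to 3. The genotypes overlapped, and replicates 1 and 2 differed little between them. The difference between same-numbered arrays (p53 minus WT) was 0.0026 for replicate 1, -0.03 for replicate 2 and -0.44 for replicate 3, so the lower mean of p53 rests mainly on replicate 3. The log2 difference was -0.16 (95% confidence interval -0.43 to 0.12, adjusted p = 0.446), it was -0.08 without p53 replicate 3, and with p53 replicate 1 alone against WT it was 0.01.

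The 2 probe sets of AT4G32700 gave different values. Probe set 253450_at read 0.17, 0.06 and 0.24 in WT and -0.09, -0.23 and -0.06 in p53 replicates 1 to 3. The genotypes were separated by 0.11, the widest gap among the members. The difference within each replicate number was close to constant, at -0.26, -0.29 and -0.29. The log2 difference was -0.28 (standard error 0.09, 95% confidence interval -0.50 to -0.06), a fold change of 0.824, with the lowest adjusted p of the members at 0.0905. Its residual SD of 0.09 was the smallest of the 8 and lay above that of 22.7% of all probe sets. Over the alternatives its value stayed between -0.33 and -0.23 and its adjusted p between 0.0765 and 0.280.

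Probe set 253449_at of the same gene read -0.02, -0.17 and 0.02 in WT and 0.15, -0.15 and 0.07 in p53 replicates 1 to 3. Here the genotypes overlapped and the log2 difference was 0.08 (95% confidence interval -0.17 to 0.34, adjusted p = 0.695). It was 0.03 without WT replicate 2, 0.02 without p53 replicate 1 and 0.17 without p53 replicate 2. Replicate 2 was the lowest array of its genotype for both probe sets. The difference between the probe sets, 253450_at minus 253449_at, was 0.19, 0.22 and 0.22 in WT and -0.24, -0.08 and -0.13 in p53 replicates 1 to 3. It averaged 0.21 ± 0.02 (SD, n = 3) in WT and -0.15 ± 0.08 (SD, n = 3) in p53, a change of -0.36 with no overlap (exact two-sided permutation test, p = 0.1, the smallest that 3 against 3 arrays can give). Of 146 genes that exactly 2 probe sets name, 27 (18.5%) had log2 differences at least as far apart, and in 41 (28.1%) they had opposite signs. The median distance was 0.15. A value for AT4G32700 as a whole therefore depends on the probe set, and which part of the transcript each one matches was not used here.

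**Figure D2:**
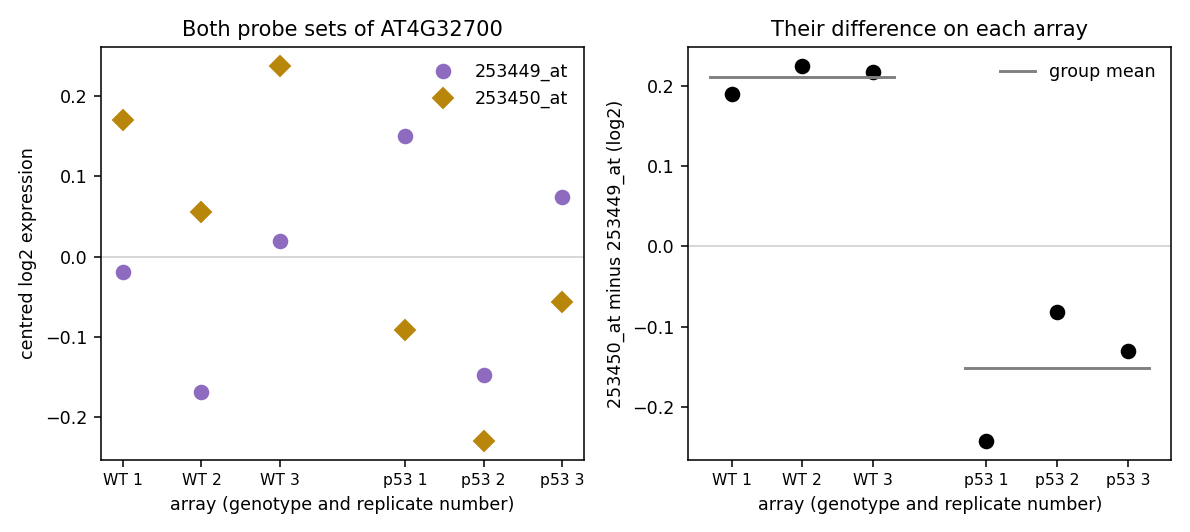
Centred log2 expression of the 2 probe sets of AT4G32700 on the 6 arrays (left) and their difference on each array with the group means as lines (right). The difference is 0.19 to 0.22 on the WT arrays and -0.24 to -0.08 on the p53 arrays.

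Set side by side, the anti-recombination probe sets had a median log2 difference of 0.05 with 3 of 4 values above 0. The recombination and end joining probe sets had one of -0.21 with 3 of 4 below 0. Over all 22746 probe sets the median was -0.01, with 10821 above 0 and 11925 below. The 4 values of the second group come from 3 genes, as AT4G32700 enters with both of its probe sets. Both groups hold a value of the other sign, AT1G79950 at -0.32 and probe set 253449_at at 0.08. No probe set of either group passed, and the medians describe 4 probe sets each with no test of the group. Within the members, without the block, 2 of 4 anti-recombination intervals and 4 of 4 of the others lay inside 1.5-fold, where 66% of all probe sets did so.

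**Figure D3:**
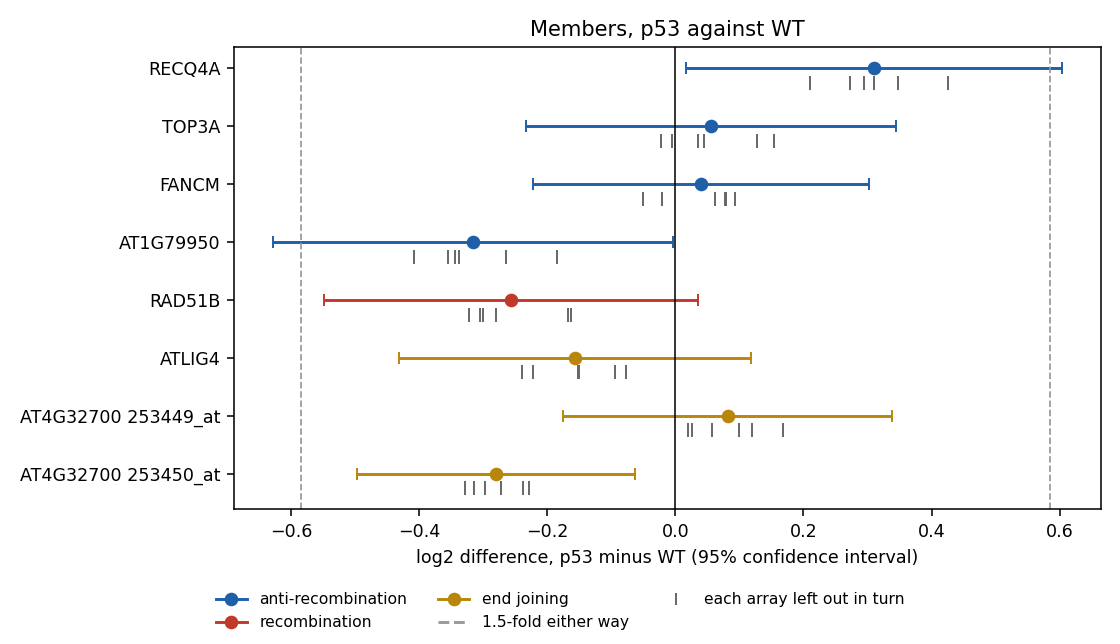
Log2 difference (p53 minus WT) of the 8 probe sets with its 95% confidence interval from limma, coloured by role; the small ticks below each interval are the values with each array left out in turn, and the dashed lines mark 1.5-fold. In this fit, without the block, the intervals of RECQ4A and AT1G79950 cross a dashed line and the other 6 do not.

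Across the 6 arrays some members had similar profiles. AT1G79950 and RAD51B had a Pearson correlation of 0.92, with WT replicate 1 highest and p53 replicate 3 lowest for both. TOP3A and probe set 253449_at correlated at 0.86, while both were lowest in replicate 2 of either genotype. FANCM ran against RAD51B (-0.78) and AT1G79950 (-0.77), as probe set 253450_at did against RECQ4A (-0.78). AT1G79950 and ATLIG4 were at 0.79, and the 2 probe sets of AT4G32700 at 0.08. These are correlations over 6 arrays that share genotype and replicate number, given as a description. Among the 13513 probe sets that name 1 gene, the closest profile to RECQ4A was that of AT5G38690 (0.987), to TOP3A that of AT2G19050 (0.994), to FANCM that of AT3G16680 (0.994) and to AT1G79950 that of AT2G14825 (0.993). For RAD51B it was AT1G33700 (0.988), for ATLIG4 AT4G34660 (0.989), for probe set 253449_at AT2G12240 (0.99) and for 253450_at AT4G28815 (0.999). Each of these is the highest value among all candidates over 6 arrays and carries no test.

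The wider pathway was described with a list of 76 genes of anti-recombination, recombination, end joining, damage signalling and chromatin assembly, drawn up by locus. Of these, the annotation used here names 21 genes alone, by 22 probe sets in all, and the other 55 were not analysed here. Outside the members 14 genes were left, 1 of which was higher in p53, none lower, and 13 did not pass. The share that was higher, 7.14%, is near the 6.55% of all probe sets. Their median log2 difference was 0.11. The gene that passed was AT4G14970 (probe set 245585_at), which carries no symbol in the annotation used here. The list enters it by locus as FANCD2 under anti-recombination, a placement that was not tested here. It read -1.47, -1.27 and -1.57 in WT and 1.63, 1.56 and 1.27 in p53 replicates 1 to 3. The genotypes lay far apart. The arrays within each, p53 replicates 2 and 3 included, were close together only beside that distance. The residual SD of 0.17 lay above that of 63.4% of all probe sets. Its log2 difference was 2.92 (standard error 0.13, 95% confidence interval 2.62 to 3.23), a fold change of 7.59, with an adjusted p of 6.15e-05, and its size exceeded that of 99.6% of all probe sets. AT4G14970 passed under every alternative tried, with values from 2.63 after quantile normalization to 3.06 with p53 replicate 1 alone.

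No other gene of the list came near that size. On the anti-recombination part is AT1G78790 (MHF2, named for a histone-fold partner of FANCM). It read 0.16, 0.04 and 0.11 in WT and -0.28, -0.29 and -0.04 in p53 replicates 1 to 3. Its log2 difference was -0.31 (95% confidence interval -0.54 to -0.07, adjusted p = 0.086), and without p53 replicate 3 it was -0.39 and passed (adjusted p = 0.0265). RECQ4B, the closest relative of RECQ4A, was named here after its value was seen. The list enters RECQ4B under anti-recombination too, a placement that was not tested here. Its log2 difference was 0.07 (95% confidence interval -0.21 to 0.36, adjusted p = 0.772). Leaving out single arrays moved it between -0.02 (p53 replicate 3) and 0.16 (p53 replicate 1). In the recombination part, AT1G18090 had 0.39 (95% confidence interval 0.0089 to 0.76, adjusted p = 0.163), and 0.21 without p53 replicate 2, its highest array. In the signalling part, AT1G52530 had 0.18 (95% confidence interval -0.0042 to 0.37, adjusted p = 0.18) and RAD9, a subunit of the checkpoint clamp, had 0.14 (95% confidence interval -0.14 to 0.43, adjusted p = 0.509), which was 0.02 without WT replicate 3. In the end joining part, ATLIG4 and AT4G32700 were the genes that could be named.

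**Figure D4:**
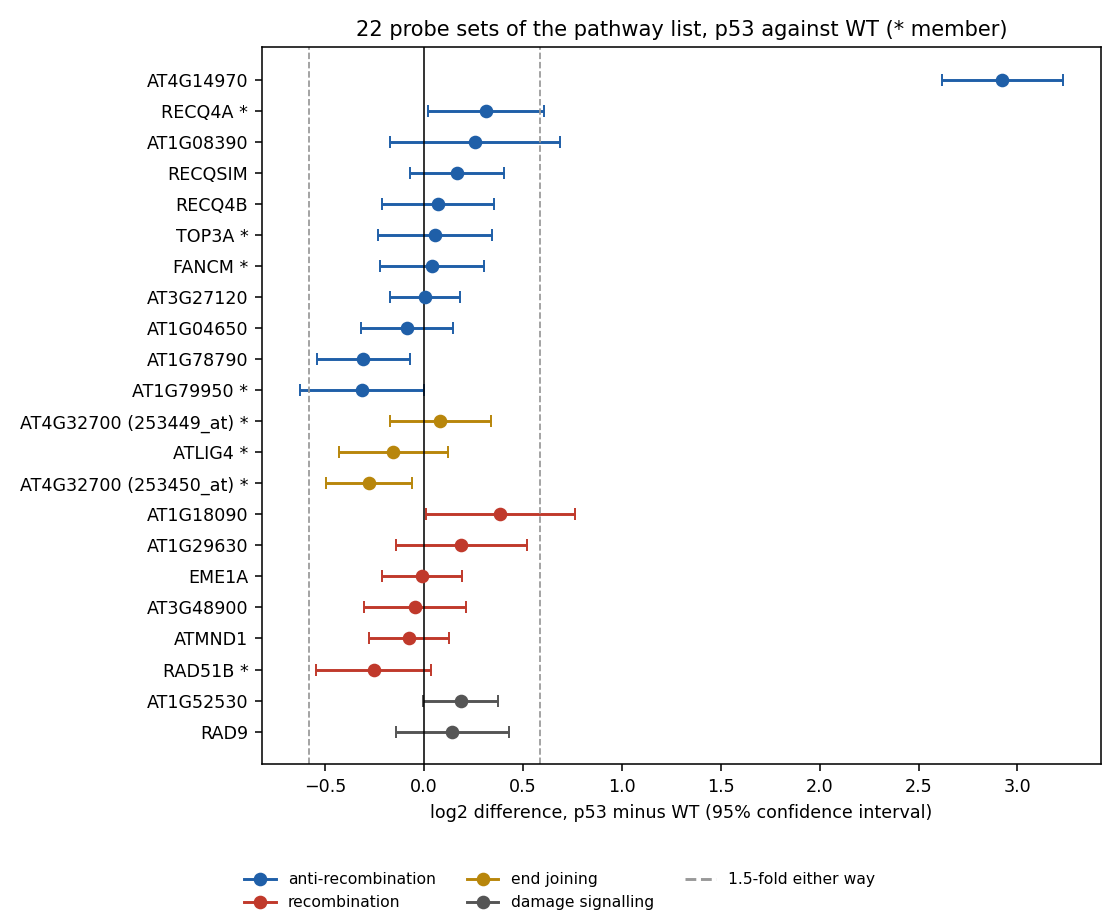
Log2 difference (p53 minus WT) of the 22 probe sets of the pathway list with the 95% confidence interval from limma, coloured by role; asterisks mark the members and dashed lines 1.5-fold. AT4G14970 lies at 2.92 and the others between -0.32 and 0.39.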

How the data were processed

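Total RNA of 3 WT and 3 p53 samples was hybridized to the ATH1 array. The labels name TRIzol for RNA extraction and the methods an RNeasy kit. Per the labels the authors summarized probe sets with PLIER, and the deposited values are log2 expression (base assumed) minus each probe set's median over the 6 arrays. The normalization between arrays and the array background correction could not be learned from the labels or the paper. Of 22810 probe sets, 64 controls were left out. Of 22746, 13513 name 1 gene, 503 several and 8730 none in the annotation used. Values were used as deposited, since array medians and quartiles had a range of at most 0.07. The quartiles themselves lay close to 0, at -0.08 and 0.10 in WT replicate 1. In p53 replicate 3, the array with the widest quartiles, they were -0.15 and 0.16.

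p53 was compared with WT in limma 3.58.1 under R 4.3.3 (lmFit, eBayes, no covariate, Benjamini-Hochberg over 22746 probe sets). Precision is limited by having 3 arrays a group. The steps were tested on simulated data. Replicate numbers are shared by the genotypes. Deviations from the group mean in same-numbered arrays had correlations of 0.12, 0.27 and 0.34, all past the limit of 0.1, so the numbers may pair the arrays. The values reported are from the fit without pairing, as designed, and a blocked fit was an alternative. Named are all members, the pathway genes that passed and, for each role, the 2 with the smallest p, and the closest profile to each member. Members, lists and tests were chosen with earlier results of these data known. Alternatives were quantile normalization, centring, robust eBayes, the t-test the study names (adjusted here by Benjamini-Hochberg), other adjustment sets and leaving out each array. The use of p53 replicate 1 alone, all alternatives for AT4G14970, and leaving out arrays for the other pathway genes were added after seeing the data.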

Additional observations from a re-analysis of the deposited data

How the results depend on the processing

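The count of members that passed stayed at 0 of 8 with the replicate number as a block, with quantile normalization, with centred arrays, with robust eBayes, with the methods' t-test, with controls kept and with adjustment over the 13513 probe sets that name 1 gene. It was 0 to 1 with each array left out, 1 with p53 replicate 1 alone against WT (RECQ4A in both cases, the latter with no spread among p53 arrays, which are assumed to vary like WT) and 3 at an unadjusted p under 0.05. RECQ4A then stood at 0.42 and 0.51. Its interval with the block was -0.0002 to 0.62 (adjusted p = 0.158). The block changed no call at an adjusted p among the members or the pathway list. Signs changed for TOP3A without WT replicate 2 (-0.0046) or p53 replicate 3 (-0.0221), for FANCM without WT replicate 1 (-0.02) or p53 replicate 3 (-0.0506) or with p53 replicate 1 alone (-0.0667), and for ATLIG4 with p53 replicate 1 alone (0.0106). With each array left out TOP3A ran from -0.0221 to 0.1546, FANCM from -0.0506 to 0.0934, probe set 253449_at from 0.0195 to 0.1685 and RECQ4A from 0.2109 to 0.42. The cause was not tested. AT4G14970 passed throughout, with an adjusted p up to 0.00886 (the methods' t-test). The pathway count of 1 became 1 to 3 with each array left out and 2 with p53 replicate 1 alone. The distance between the probe sets of AT4G32700 was -0.45 with p53 replicate 1 alone. Over the whole array 3500 probe sets passed (1490 higher, 2010 lower), and 1411 (668 and 743) with the methods' t-test. Among probe sets that name 1 gene 1797 passed (724 and 1073). At an unadjusted limma p under 0.05 with a fold change over 2 the count was 1337. With each array left out the count ran from 1621 to 4346 (higher 722 to 1961, lower 899 to 2385). Without levels, no filter on dim probe sets could be tried.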
